A study of Cyanidioschyzon merolae strain 10D with 7 samples.

Results

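Regions of trimethylated histone H3 lysine 27 (H3K27me3) within 50 kb of the chromosome ends were examined in Cyanidioschyzon merolae strain 10D, a single-celled red alga of hot acidic water. A region is a stretch of bases covered by peaks in at least 2 of 3 peak lists called against input chromatin, and it was kept when its midpoint lay within 50 kb of base 0 or of the last base covered by any peak of its chromosome. This gave 263 of 1337 regions, 134 at left ends (base 0) and 129 at right ends, on the 40 arms of the 20 nuclear chromosomes. Left and right follow the numbering of the authors' reference, and the other 1074 regions are called interior. The members were chosen by the positions of peaks against input, with the last base set by all 6 lists, so their number, position, length and fold against input are given as descriptions.

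The samples were liquid cultures grown at 42 °C in continuous light to late log phase and fixed with formaldehyde. All groups came from the same strain and growth condition, with no mutant and no treatment. Chromatin immunoprecipitation with sequencing gave 3 libraries for H3K27me3, 3 for total histone H3 and 1 for input, which the labels call biological replicates. Each of the 3 H3K27me3 libraries, tagged IP6, IP7 and IP8, was compared by the authors with input and with H3, which makes 6 lists of broad peaks. The lists against input share the single input library, and the lists against H3 use the same H3K27me3 libraries, so the controls do not supply independent samples of the mark. The lists hold no read counts and the depth is unknown, so each error is the standard deviation (SD) over 3 lists, which holds no spread of the shared input. With 3 lists, an exact sign-flip permutation test cannot give a p below 0.25.

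H3K27me3 is laid down by Polycomb repressive complex 2 (PRC2), whose catalytic subunit is E(z). In animals and plants the mark lies over genes held silent through development. In several fungi and unicellular eukaryotes it also covers the zones next to the telomeres, which tend to be poor in conserved genes and rich in repeats. Total H3 reports where nucleosomes are, and input reports how readily a region enters the chromatin extract.

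H3K27me3 was concentrated towards both ends. The outer 50 kb of all arms make up 12.1% of the summed chromosome spans, and the members held 661021 bp, or 28.1% of the bases of all regions. In the lists against input, 32.7% of the end windows lay in peaks in IP6, 32.3% in IP7 and 34.1% in IP8. In the rest of the chromosomes the mean was 11.6% ± 0.473 (SD, n = 3 lists). The ratio of ends to rest was 2.85 ± 0.0349 and did not overlap 1 in any list. In the lists against H3, which entered the choice of members only through the last base of each chromosome, 30.7%, 30.9% and 33.7% of the end windows were covered, and the ratio was 3.31 ± 0.105.

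The mark was densest in the outer 10 kb and thinner further in on both sides. Against input, the first 5 kb were covered to 59.0% ± 1.14 at left ends and to 55.6% ± 1.48 at right ends. Between 5 and 10 kb the values were 48.3% on the left and 65.1% on the right. At 45 to 50 kb they were 16.9% and 6.74%, the right value a low point between 23.2% at 40 to 45 kb and 19.85% at 50 to 55 kb. Bins of the same distance do not match exactly between sides, because a right end is set by the outermost peak and is a lower bound on the true chromosome end. All 6 lists reached within 2 kb of base 0 on 18 of 20 left ends, and within 2 kb of the span end on 11 of 20 right ends.

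**Figure D1:**
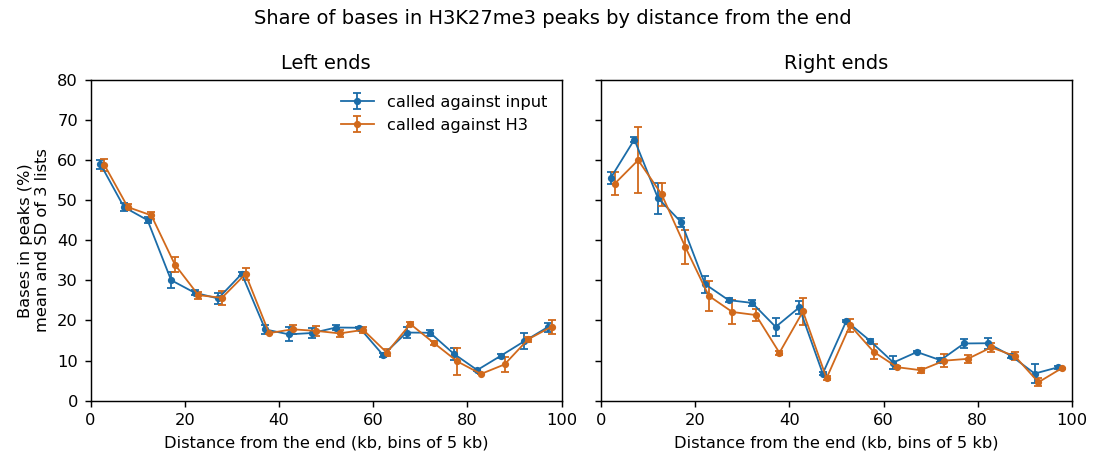
Share of bases in peaks (y axis, percent) in 5-kb bins of distance from the left and the right ends (x axis, kb), for lists called against input and against H3. Points are means of 3 lists over 20 ends and bars are SD. Coverage against input is 59.0% in the first left bin and reaches 65.1% at 5 to 10 kb on the right. At 45 to 50 kb it is 16.9% on the left and 6.74% on the right, where it is 19.85% at 50 to 55 kb.

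Most left ends carried the mark up to the first bases of the sequence. The outermost member began less than 300 bp from base 0 on 16 of 20 left arms and less than 2 kb from it on 18. On the right, distances run from the outermost peak itself, so the corresponding 17 and 18 of 20 arms follow from how the span was set and do not show the mark at the chromosome end. On 2 chromosomes the last gene of the RefSeq table ends beyond the span. The arms over 2 kb included the left ends of chromosomes 3 and 7, where the outermost member began at 4019 and 3719 bp. Within 2 kb of base 0 lay peaks of 0 of 6 lists on chromosome 3. On chromosome 7 it was 2 of 6, the first at 157 bp. The others were the right ends of chromosomes 5 and 17. There the outermost member began at 17394 and 6253 bp, and only 2 of 6 lists reached within 2 kb of the span end. The study measured to the ends of the sequence and named other exceptions. These were the left end of chromosome 3 and the right ends of chromosomes 7, 14 and 16, not those of chromosomes 5 and 17. Here the outermost members of the right arms of 7, 14 and 16 began 35, 10 and 50 bp from the span end. All 20 outermost members on the left were found in all 6 lists, against 12 of 20 on the right and 56.5% of all regions. Their mean fold against input (the authors' enrichment over the control, averaged over the peak) had a median of 2.43 on the left, with a range from 1.08 to 5.43, and of 1.53 on the right, with a range from 1.16 to 2.81.

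End regions were longer than interior ones. The median length was 1744.5 bp on the left, 1947 bp on the right and 1293 bp in the interior, and 31 of 263 members (11.8%) were longer than 5 kb, against 19 of 1074 interior regions (1.77%). The long members were spread over 25 arms, 11 left and 14 right. Among the 10 longest, the 6 right members had mean folds between 1.18 and 1.81 and the 4 left members between 2.88 and 5.43.

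The longest member was chr6:518511-536139 at the right end of chromosome 6, 17629 bp long, with folds against input of 1.89 in IP6, 1.64 in IP7 and 1.89 in IP8. The longest on the left was chr15:18-15893, 15876 bp long, with folds of 6.11, 4.51 and 5.66. The lists of the left region lie above those of the right region throughout. Other long members at left ends were chr5:41-13814 with a mean fold of 4.20 ± 0.541, chr4:4967-17955 with 2.88 ± 0.355 and chr2:20-10263 with 4.45 ± 0.601. At right ends they were chr15:889276-902881 with 1.49 ± 0.181, chr12:847848-859091 with 1.20 ± 0.0438 and chr13:857205-866960 with 1.18 ± 0.111. The remaining members of the 10 longest, chr18:1236059-1245768 and chr2:442906-452613, also at right ends, had 1.37 ± 0.0892 and 1.19 ± 0.0872. Chromosomes 2 and 15 thus hold 1 of these 10 longest members at each end, weakly enriched on the right and strongly on the left. Coordinates are counted from 1 on the C. merolae Genome Project v3 build, as in the deposited lists.

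**Figure D2:**
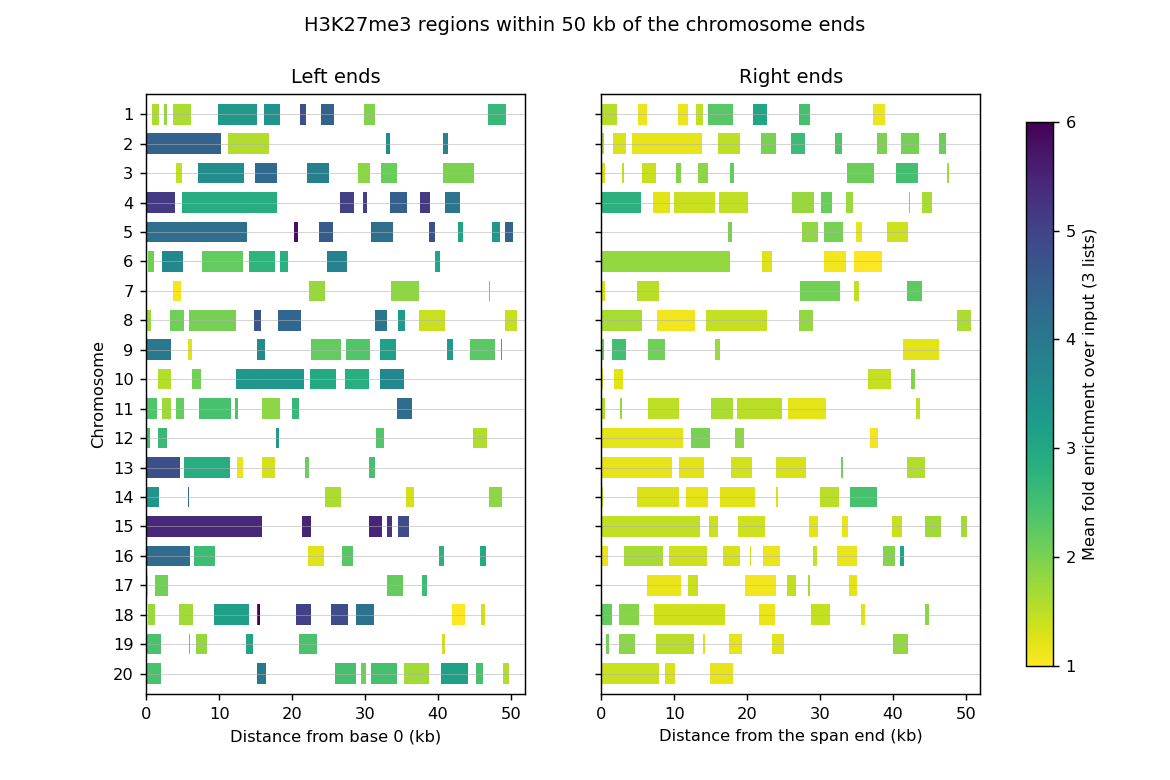
Members on each of the 40 arms, drawn to scale by distance from the end (x axis, kb, left ends in the left panel and right ends in the right panel) for chromosomes 1 to 20 (y axis), coloured by mean fold enrichment over input in 3 lists. Long members lie on both sides, and the 10 members with the highest fold found in 3 lists are all on the left.

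The ends differed in enrichment by side. Against H3, the median fold of left-end peaks was 2.74 in IP6, 2.33 in IP7 and 2.75 in IP8, that of right-end peaks 1.45, 1.26 and 1.41, and that of interior peaks 1.47 ± 0.0383. Peaks of these lists that overlapped no region against input were left out, 109 in IP6, 113 in IP7 and 126 in IP8. Every left value lay above every right value. The left-minus-right difference was 1.23 ± 0.144 (exact two-sided sign-flip permutation p = 0.25, the smallest that 3 lists allow). Left-end peaks exceeded interior peaks by 1.14 ± 0.213, in 3 of 3 lists, while right-end peaks differed from them by -0.0946 ± 0.0833, below them in 3 of 3 lists (exact permutation p = 0.25 each). Taken over both sides, end peaks exceeded interior peaks by 0.350 ± 0.0912 (exact permutation p = 0.25), a value that lies between those of the sides. Against input the medians were 2.80, 2.42 and 2.82 on the left and 1.43, 1.38 and 1.52 on the right.

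The same order held on nearly every chromosome. Against input, the left end had the higher median fold in each of 3 lists on 19 of 20 chromosomes, and against H3 on 20 of 20, and the right end was higher in each list on 0 under either control. A median fold of at least 2 in each list against input was found at 15 of 20 left ends and 0 of 20 right ends, and against H3 at 16 and 0. The ratio of the left to the right median fold of a chromosome against input ranged from 1.10 to 3.91. The highest arms were the left ends of chromosome 15 with 5.44 ± 0.847, chromosome 4 with 4.75 ± 0.766 and chromosome 5 with 4.34 ± 0.514, in that order in each of the 3 lists, although their SDs overlap. The lowest was the right end of chromosome 13 with 1.24 ± 0.0573. These arms come from the same 3 libraries and are not replicates. Left and right follow the numbering of the reference, and how each chromosome was oriented is not known here. No reads or coverage were analysed here, and what sets the sides apart was not tested.

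**Figure D3:**
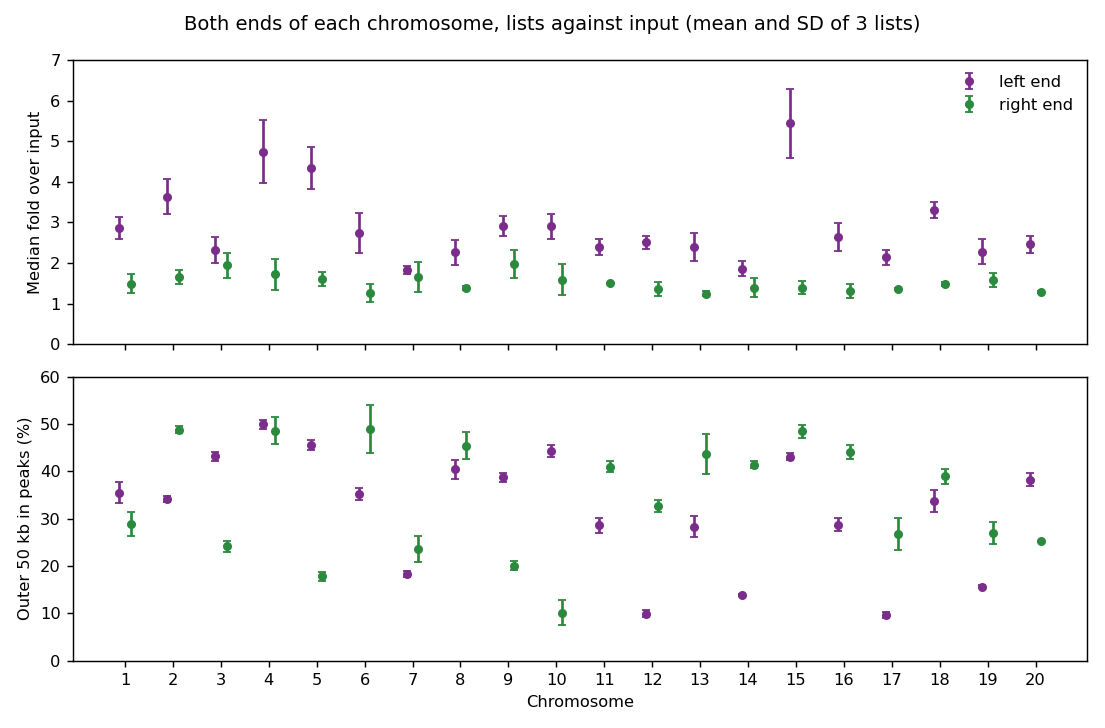
Median fold over input of peaks (upper panel) and share of the outer 50 kb in peaks (lower panel, percent) at the left and right end of each chromosome (x axis), as mean and SD of 3 lists against input. The left end has the higher fold in every list on 19 of 20 chromosomes, while the larger covered share lies left on 6 and right on 13.

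The median fold of left-end peaks was not highest at the very end. Each peak counts once in this median, so it does not describe enrichment per base. Long members such as chr15:18-15893, with a mean fold of 5.43, weigh no more than short ones. The outermost members on the left had mean folds from 1.08 to 5.43. Against input, the median fold was 2.2 ± 0.200 within 10 kb of base 0, 3.20 ± 0.375 from 10 to 25 kb and 2.75 ± 0.222 from 25 to 50 kb. It was 2.28 ± 0.150 from 50 to 75 kb and 1.94 ± 0.156 from 75 to 100 kb, and 1.59 ± 0.0565 from 150 to 200 kb. The second bin was above the first in each list, and also in each list against H3, where the values were 2.34 ± 0.25 and 3.09 ± 0.258. At right ends the fold stayed level with distance, between 1.38 and 1.61 in all bins to 200 kb against input. The higher fold on the left thus ran past the 50-kb limit of the rule.

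**Figure D4:**
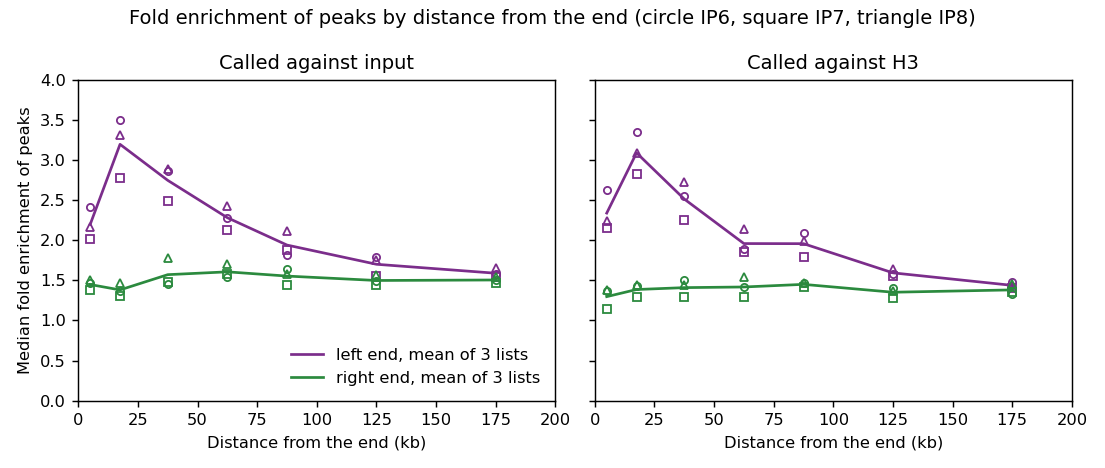
Median fold enrichment of peaks (y axis) by distance from the left or right end (x axis, kb), for lists against input and against H3. Symbols are single lists and lines are means of 3 lists, and the left ends reach 3.20 against input at 10 to 25 kb while the right ends stay between 1.38 and 1.61.

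At the limit of the rule, the members just inside were chr15:852720-853605 with a mean fold of 1.70, chr5:49242-50249 with 4.41 and chr8:49218-50777 with 1.45. The regions just outside were chr19:1231694-1232811 with 2.48, chr17:1181334-1182316 with 1.79 and chr13:815144-817118 with 1.28.

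Read per region, 129 of 134 left members (96.3%) and 106 of 129 right members (82.2%) shared at least 1 bp with a region called against H3, against 81.0% of all 1337 regions. The right share therefore lay near that of all regions. A fold of at least 2 against H3 in each of 3 lists was reached by 82 left members (61.2%) and 2 right members (1.55%), and by 14.0% of all regions. Against input, 84 left and 7 right members passed the same fold, against 18.1% of all regions, values from the contrast that the rule used. Presence in all 6 lists also differed, with 118 left members (88.1%), 71 right members (55.0%) and 52.7% of interior regions. Among members with a mean fold under 2 against input, 26 of 34 on the left (76.5%) and 53 of 104 on the right (51.0%) were in all 6 lists. Among those with at least 2, it was 92 of 100 and 18 of 25. Interior regions gave 360 of 786 (45.8%) and 206 of 288 (71.5%), near the right values.

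The members with the highest fold in 3 lists were chr5:20202-20745 with a mean fold of 5.79 ± 0.910 against input, chr15:21306-22554 with 5.51 ± 0.915 and chr15:30514-32277 with 5.49 ± 0.879. All lay at left ends, 20201 to 30513 bp from base 0. Their SDs overlap, although the first lay above the others in each of 3 lists. The highest at a right end was chr16:863093-863574 with 3.09 ± 0.240 against input and 1.68 ± 0.389 against H3, 40966 bp from the span end and present in 5 lists, 2 of them against input. The second was chr1:398607-400520 with 3.05 ± 0.249 against input and 2.39 ± 0.240 against H3, in all 6 lists.

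In covered length the sides were alike or differed in the other direction. Against input, 31.0%, 31.7% and 32.6% of the left windows and 34.3%, 32.9% and 35.6% of the right windows lay in peaks. The right-minus-left difference was 2.5 ± 1.11 percentage points and positive in 3 of 3 lists. Against H3 it was -1.10, -2.57 and 0.761 points, a mean of -0.968 ± 1.67 that did not differ from 0 beyond the spread (exact permutation p = 0.5). With only peaks of at least 2-fold, the difference against input turned to -19.6 points.

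The choice of control moved the sides in opposite directions. At right ends, coverage against input exceeded that against H3 by 4.12 points in IP6, 3.24 in IP7 and 1.46 in IP8. At left ends it was lower in each list, with differences of -0.275, -0.564 and -0.764. The difference between sides was 3.47 ± 1.12 points. For both sides together, input exceeded H3 by 1.20 points, and in the rest of the chromosomes by 1.96 ± 0.272. These values include coverage against input, which chose the members, and are given with no test.

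Arms varied widely in how much of their outer 50 kb was covered, on both sides. An arm held 3 to 10 members, with a median of 6.5. The least covered were the left ends of chromosome 17 with 9.66% ± 0.604 and chromosome 12 with 9.93% ± 0.679, and the right end of chromosome 10 with 10.1% ± 2.65, which do not differ beyond their spread. The most covered were the left end of chromosome 4 with 49.9% ± 0.984, the right end of chromosome 6 with 48.9% ± 5.02 and the right end of chromosome 2 with 48.8% ± 0.764, again within their spread. On 38 of 40 arms the members took a larger share than regions did in the interior of the same chromosome. The exceptions were the left end of chromosome 17 and the right end of chromosome 10.

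The ends of a chromosome were not alike. Across 20 chromosomes, the covered shares of the left and right end had a Pearson r of 0.0134 and their median folds of 0.155, given as descriptions over ends that share the same 3 libraries. Arm by arm, the covered share against input and against H3 had an r of 0.97 over 40 arms, where both controls use the same immunoprecipitates. On left arms, share and fold had an r of 0.630 (n = 20), and on right arms of -0.422 (n = 20). The lists varied more on the right against H3, where the SD of an arm's share reached 10.2 points at chromosome 19, beside a highest value of 4.05 on the left.

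Genes were scarcer and more often covered at the ends. Gene positions were taken from RefSeq, which lists 5373 nuclear genes, and 571 of them lay in the end windows, 14.3 per 50 kb against 16.5 in the interior. Genes took 44.2% of the bases of the end windows and 50.7% of the interior. Peaks lay mostly between genes in both places. Of the bases outside genes, 47.5% at the ends and 20.9% in the interior were in regions, and of the bases inside genes 14.9% and 2.58%. No gene was touched by 159 of 263 members (60.5%), against 859 of 1074 interior regions (79.98%).

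A gene was called covered when peaks of 2 or more of the 3 lists against input each took up 50% or more of its length. By this measure 68 of 571 end genes (11.9%) were covered, 29 of 295 on the left (9.83%) and 39 of 276 on the right (14.1%), against 3.57% of all nuclear genes and 2.58% of interior ones. They comprised 58 of 507 protein-coding genes, 9 of 60 genes annotated as misc_RNA and 1 of 4 tRNA genes. Against H3, 69 end genes (12.1%) were covered, beside 3.35% of all nuclear genes. Covered against both controls were 61 of 571 end genes and 162 of 5373 nuclear genes. The peaks over the 29 left genes had a median mean fold of 2.98 against input, with a range from 1.62 to 5.43, and those over the 39 right genes 1.43, from 1.14 to 2.81. The 20 covered genes with the highest fold were all on the left.

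The first of these were CMO001C and CMO003C, both inside chr15:18-15893, fully covered in each list and with a mean fold of 5.43 ± 0.824 against input. CMD012C on chromosome 4 followed with 5.16 ± 0.707, CMM002C on chromosome 13 with 4.79 ± 1.41 and CMB002C and CMB003C on chromosome 2, which share a peak, with 4.45 ± 0.601. CMC006T, a misc_RNA gene on chromosome 3, had 4.29 ± 0.587. CMK015C had 4.25 ± 0.485, CMP002C 4.25 ± 0.660 and CME001C, inside chr5:41-13814, 4.20 ± 0.541. These values overlap within their SD, although CMO001C and CMO003C lay above the other genes of this list in each of 3 lists. The covered gene with the highest fold on the right was CMD191C, the last gene of chromosome 4, with 2.41, 2.90 and 3.11 against input. Against H3 its values were 1.13, 1.01 and 1.31, well under those against input in each list. The table gives no product for these genes, and their roles are not stated here.

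The genes nearest the telomeres split into covered and bare ones. Of the outermost genes of the 40 arms, 20 were covered, 10 left and 10 right, 12 were at 0 in peaks in all 3 lists against input, and 8 were partly covered. Among all 571 end genes 11.9% were covered, and among all nuclear genes 3.57%. At least 1 base in peaks was found in 154 of 571 end genes and 456 of 5373 nuclear genes, so most genes in both sets were bare. Against H3, 21 outermost genes were covered and 12 were at 0, beside 12.1% of end genes and 3.35% of all nuclear genes covered. Fully covered outermost genes included CMB002C, CME001C and CMO001C at left ends, and CMD191C, CMF188T, CML339C, CMM335C, CMO357C and CMT636C at right ends.

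Bare outermost genes recurred at equal length. The 5 outermost genes CMJ319C, CML001C, CMN001C, CMQ001C and CMQ474C, at 3 left and 2 right ends, are each 1698 bp long, and all had 0 coverage in the 6 lists. Only 6 nuclear genes of the table have that length. CMA145C, CMC188C and CMI306C, at 3 right ends, are each 1065 bp long with coverage between 0 and 0.0939%, and CMS002C and CMT003C, at left ends, are each 1881 bp long with 0. Other pairs of equal length differed in coverage: CMN340C and CMS508C, of 2190 bp, had 8.995% and 68.7%, and CMR001C and CMD191C, of 2757 bp, had 57.8% and 100%. Among all nuclear genes of the table, 7 are 1065 bp long, 5 are 1881 bp, 3 are 2190 bp and 5 are 2757 bp. No sequence of these genes was compared, so equal length does not show that they are copies, and reads from near-identical copies could be lost or shared at mapping.

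**Figure D5:**
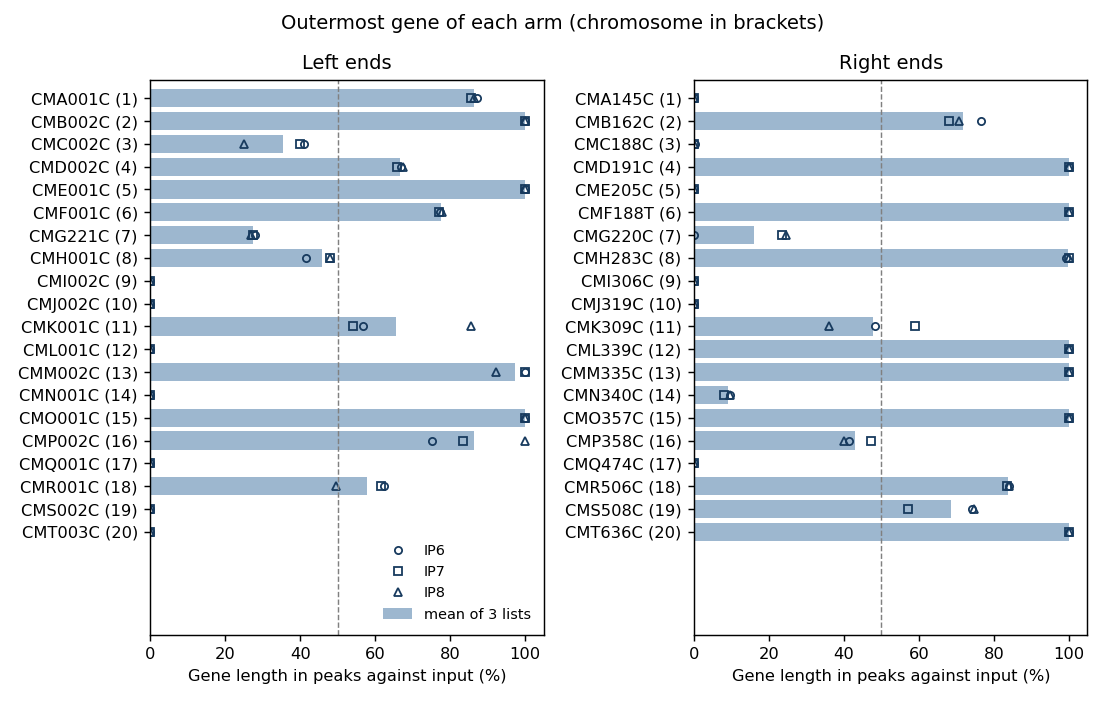
Share of the length of the outermost gene of each arm in peaks against input (x axis, percent), with the mean of 3 lists as bars, single lists as symbols and the 50% limit as a dashed line. Of the 40 genes, 20 are covered and 12 are at 0 in every list, beside 11.9% of all end genes covered.

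The 5 genes that the study grouped under protein splicing, the excision of an internal stretch from a protein, are each the outermost gene of an arm. The study chose this group on these samples, so it is not independent evidence. CMH283C at the right end of chromosome 8 was covered to 99.8% ± 0.416, CMR506C at the right end of chromosome 18 to 83.9% ± 0.347 and CMS508C at the right end of chromosome 19 to 68.7% ± 10.1. CMH001C, at the left end of chromosome 8, and CMP358C, at the right end of chromosome 16, reached 45.7% ± 3.65 and 42.8% ± 3.84 and were not called covered. Against H3, CMS508C was at 74.2% in IP6, 0% in IP7 and 74.8% in IP8, so the list IP7 set it apart from the others.

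The genes for 3 PRC2 subunits lay away from the ends. CMQ156C, the E(z) homolog that carries the methyltransferase activity, CMK173C, the ESC homolog, and CML082C, the Su(z)12 homolog, were interior genes with 0 coverage in all 6 lists. Of the loci tested by ChIP-PCR in the study, CMK028C and CMS262C were also interior and at 0. CMA095C was interior and covered to 94.6% ± 0.812, with a fold of 1.55 ± 0.0826 against input. That fold lay at the median of interior peaks, 1.55 ± 0.0639, below the left-end medians and above the right-end ones.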

How the data were processed

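The authors trimmed reads by quality, mapped them with Bowtie2 to the genome named C. merolae Genome Project v3 and then called broad peaks with MACS2 on each immunoprecipitation separately. The submitters' processing notes also name FastQC 0.11.4, Bowtie2 2.2.6, MACS2 2.1 and bedtools 2.17. The 6 deposited lists hold positions, a fold enrichment (a ratio to the control, as a mean over the peak) and −log10 values of p and q. All columns were mapped to a group, with 0 left over. The tags could not be matched to replicate numbers.

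Overlaps, medians and permutations used Python 3.11.15, pandas 2.3.3 and scipy 1.17.1, tested on simulated lists. An end or interior peak overlaps such a region by at least 1 bp. Chromosome spans are the largest peak end over 6 lists. RefSeq genes are of ASM9120v1, and no coordinate of it is given. Moving them by 3000 bp either way raised the share of member bases in genes from 19.8% to 40.0% and 40.7%.

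The members, lists and tests were chosen with earlier results of these data known, and the fold of left against right ends was added after it was seen. Permutation tests of covered length against input, by side and against the H3 lists, were planned, but are not printed because that contrast chose the members and both controls share libraries. Genes named are outermost genes, the 20 covered genes of highest fold, PRC2, ChIP-PCR and protein splicing genes; regions named are outermost members, the 10 longest and those of highest fold. Alternatives were a fold of at least 2, a −log10 q of at least 5, windows of 20 and 100 kb, other overlaps and each list left out. Protein identity between ends was not analysed here.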

Additional observations from a re-analysis of the deposited data

Results flagged for a closer look

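Left-end and right-end peaks lay on opposite sides of interior peaks in fold against H3. The left-end difference was 1.14, above 0 in each of 3 lists, and the right-end difference was -0.0946, below 0 in each but close to it (-0.00883 in IP6). In windows of 100 kb the right-end difference was -0.0244 (exact permutation p = 0.75). The difference between sides was tested, with an exact sign-flip permutation p of 0.25, the smallest that 3 lists allow.

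The change of control moved covered share by -0.534 percentage points at left ends and by 2.94 points at right ends, input minus H3, with opposite signs in every list. The difference was not tested, because coverage against input chose the members. Right spans are set by the peaks, and how far this or the choice of H3 library enters was not tested.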

How the results depend on the processing

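The number of members was 118 with only peaks of at least 2-fold, 126 in windows of 20 kb and 421 in windows of 100 kb, and 244 to 253 with a list left out. Of these, 90, 114 and 369 were called against H3, and 197 to 216 with a list left out. Changing the window leaves the share over all regions at 81.0%. For peaks of at least 2-fold, a limit also put on the H3 lists, and with a list left out, that share is not given here. Those counts are therefore not read as a result about the ends. The right-minus-left difference in covered share turned to -19.6 points with peaks of at least 2-fold, to -11.7 when peaks needed a −log10 q of 5 and to -0.968 in the lists against H3. The cause was not tested. It was 8.34 points in windows of 20 kb, 0.0516 in windows of 100 kb and 2.41 with windows drawn from the outermost peak base on both sides, and 2.11 to 3.14 with a list left out. The count of 68 covered end genes became 30 with peaks of at least 2-fold, 129 at 1 bp and 41 at 80% of the length, and 63 to 65 with a list left out. The share of all nuclear genes under these settings is not given here.

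The fold against H3 kept its direction under every alternative run. Left minus right ranged from 0.961 to 1.34 (1.25 to 1.34 with a list left out), left minus interior from 0.547 to 1.29 (1.10 to 1.29), right minus interior from -0.415 to -0.0244 (-0.148 to -0.0535) and all ends minus interior from 0.196 to 0.477 (0.352 to 0.448). Left minus right against input ranged from 0.895 to 1.36 (1.19 to 1.36). Input minus H3 coverage ranged from 0.152 to 1.63 points (0.843 to 1.63 with a list left out). Pairing lists by tag, a replicate block, left this difference at 1.20 points. None of these designs can reach a p of 0.05, so the p-values say nothing about stability.

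Depth is unknown, so bases outside peaks are not shown to lack the mark.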

Other observations

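Fold enrichment ran in neighbourhoods. Within each of the 6 lists, the folds of adjacent peaks had a Pearson r between 0.652 and 0.693, over 1087 to 1336 pairs, while their lengths had an r between 0.0796 and 0.126. Adjacent peaks share a library and a stretch of sequence, so these are descriptions. Among members, length and mean fold had an r of 0.156 on the left (n = 134) and of -0.140 on the right (n = 129).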
